A study of Homo sapiens with 4 samples.

Results

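The entries described here are the nuclear genes of the mitochondrial respiratory chain and ATP synthase in human hepatocellular carcinoma (HCC) cells carrying an shRNA against WDR4. Members were taken by symbol. They begin with NDUFA, NDUFB, NDUFC, NDUFS, NDUFV, UQCR, CYC1 or ATP5, run from SDHA to SDHD, or are COX4 to COX8 followed by A, B, C or I. The rule uses symbols alone, but it was drawn up with earlier results of these data known. Of 19225 entries in the table, 98 were members. They comprised 37 subunits of complex I, 4 of complex II, 10 of complex III, 19 of complex IV and 16 of complex V, 8 complex I assembly factors (NDUFAF1 to NDUFAF8), 2 other ATP5 symbols (ATP5S and ATP5SL, which are no subunits of ATP synthase) and 2 readthrough entries. NDUFA4 and its paralog NDUFA4L2 were placed in complex IV, to which the NDUFA4 protein is now assigned.

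RNA-seq was available for 4 libraries, 1 per group, of established cell lines. HCC-LM3 is a human HCC line of high metastatic potential and Huh-7 is a human hepatoma line. The groups were HCC-LM3 cells labelled sh-WDR4-2, HCC-LM3 cells labelled sh-NC, Huh-7 cells labelled sh-WDR4-2 and Huh-7 cells labelled sh-NC, all at 48 h. sh-WDR4-2 is a short hairpin RNA against WDR4, the partner of METTL1 in the tRNA m7G methyltransferase, and sh-NC is a scrambled hairpin. According to the study's methods both hairpins were carried by lentivirus into stable lines, so all groups share viral transduction. The treatment labels instead give an siRNA for the Huh-7 sh-WDR4-2 library and a transduction with WDR4 for the HCC-LM3 one, and libraries were grouped by their source names. The comparison within each line asked what the WDR4 hairpin changes, and the comparison of the lines asked how the 2 cell backgrounds differ.

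The respiratory chain passes electrons from NADH (complex I) and succinate (complex II) through ubiquinone, complex III and cytochrome c to oxygen at complex IV. The protons pumped on the way drive ATP synthesis by complex V. Most subunits are nuclear-encoded and imported, whereas the mitochondrial genome encodes a few core subunits of every complex except complex II. Several complex IV subunits have a common isoform and a tissue-specific or stress-induced one.

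Libraries held 29807047 to 40572251 counts. WDR4 itself had 1009 counts in HCC-LM3 sh-WDR4-2 against 1604 in HCC-LM3 sh-NC, a log2 fold change of −0.22, and 990 counts in Huh-7 sh-WDR4-2 against 1077 in Huh-7 sh-NC, a log2 fold change of −0.02. The labels therefore name the libraries below, and a knockdown is not assumed. Of 12 hepatocyte markers, 5 reached 1 CPM (counts scaled to library size) in each HCC-LM3 library and 6 in each Huh-7 library. ALB and TTR had 0 counts in every library, AFP at most 6 and SERPINA1 at most 7. APOA1 and APOB, at 89.9 to 124 CPM, are among 238 entries that stand out of the order of the table, so these values may belong to other symbols. None of the 4 leukocyte markers reached 1 CPM, 2 to 3 of 4 fibroblast markers did, and so did 1 of 3 endothelial markers in each HCC-LM3 library (CDH5, at 11.5 CPM in sh-WDR4-2 and 10.7 CPM in sh-NC) and 2 of 3 in each Huh-7 library. The extraction text of the Huh-7 libraries names retinas. The description of the HCC-LM3 sh-WDR4-2 library carries the code L4 and the other 3 carry L3, so within HCC-LM3 this code and the hairpin cannot be told apart. Among the members, UQCRHL alone was out of order, and it is given below only as deposited. A place in order does not show that a symbol is right, since ALB and TTR, at 0 counts, stand in order.

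The sequences shown first are those of the paralog pair that carried the largest difference. NDUFA4 lies on chromosome 7 (10931951 to 10940256, minus strand, GRCh38) and NDUFA4L2 on chromosome 12 (57234903 to 57240715, minus strand). Their coding sequences, read 5′ to 3′ from GENCODE release 29, have 246 and 264 bases. Capitals mark the longest run of bases that both share.
NDUFA4: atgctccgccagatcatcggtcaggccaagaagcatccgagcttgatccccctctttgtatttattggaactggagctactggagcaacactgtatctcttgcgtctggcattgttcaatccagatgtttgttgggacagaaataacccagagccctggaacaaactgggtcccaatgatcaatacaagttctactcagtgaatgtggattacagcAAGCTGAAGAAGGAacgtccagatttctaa
NDUFA4L2: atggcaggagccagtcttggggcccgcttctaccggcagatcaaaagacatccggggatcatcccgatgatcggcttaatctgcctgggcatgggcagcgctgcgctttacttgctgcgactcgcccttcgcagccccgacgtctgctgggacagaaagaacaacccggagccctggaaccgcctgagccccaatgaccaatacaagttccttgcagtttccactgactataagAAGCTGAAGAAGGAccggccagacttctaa
The pair is identical at 163 of 244 aligned bases (66.8%), and the longest run in common has 14 bases, so reads of the 2 genes can be told apart over most of their length. The opposite case is UQCRH (chromosome 1, 46303631 to 46316776, plus strand) and its copy UQCRHL (chromosome 1, 15807169 to 15809348, minus strand). Their coding sequences of 276 bases each differ at 4 positions, shown in capitals.
UQCRH: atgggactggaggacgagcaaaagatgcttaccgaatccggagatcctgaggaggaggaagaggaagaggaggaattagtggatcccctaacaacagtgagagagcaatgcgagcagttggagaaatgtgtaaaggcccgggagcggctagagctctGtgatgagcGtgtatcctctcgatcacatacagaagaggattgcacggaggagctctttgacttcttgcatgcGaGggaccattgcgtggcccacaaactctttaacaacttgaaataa
UQCRHL: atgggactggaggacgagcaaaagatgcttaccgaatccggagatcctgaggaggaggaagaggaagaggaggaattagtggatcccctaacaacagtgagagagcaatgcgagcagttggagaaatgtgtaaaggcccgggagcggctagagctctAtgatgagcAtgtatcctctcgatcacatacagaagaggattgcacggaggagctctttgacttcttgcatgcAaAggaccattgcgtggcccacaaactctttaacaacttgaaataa
UQCRH, the hinge protein of complex III, had 5986 counts in HCC-LM3 sh-WDR4-2, 8500 in HCC-LM3 sh-NC, 6397 in Huh-7 sh-WDR4-2 and 6723 in Huh-7 sh-NC, whereas the UQCRHL entry had 8, 2, 6 and 0 counts in the same libraries. No source used here states how shared reads were treated, so the split of the pair is uncertain.

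As a group the subunits were abundant transcripts. The median over the 86 subunits was 81.9 and 82.4 FPKM (fragments per kilobase of transcript, scaled to library size) in HCC-LM3 sh-WDR4-2 and sh-NC, and 62.1 and 58.3 FPKM in Huh-7 sh-WDR4-2 and sh-NC, whereas the median of all entries with counts was 7.68 to 8.21 FPKM. In HCC-LM3, 64 of the 98 members lay above the 90th percentile of entries with counts in each library, and in Huh-7 51 and 49 did so in sh-WDR4-2 and sh-NC. ATP5B, the catalytic beta subunit of ATP synthase, was the most abundant member, at 874, 904, 624 and 605 FPKM in the order HCC-LM3 sh-WDR4-2, HCC-LM3 sh-NC, Huh-7 sh-WDR4-2 and Huh-7 sh-NC. Members together took 1.06% and 1.10% of all counts in HCC-LM3 sh-WDR4-2 and sh-NC and 0.875% and 0.860% in Huh-7 sh-WDR4-2 and sh-NC. At the other end, 5 members had 0 counts in all libraries, namely COX4I2, COX6A2, COX7B2 and both readthrough entries.

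Within a cell line the counts were scaled by TMM to CPM, fold changes were taken as log2(CPM + 0.5), and 88 of the 98 members passed a mean of 1 CPM in each line. A gene was called when it passed 2-fold. With 1 library per group no test between hairpins can be made within a line, so each fold change carries a 95% exact binomial interval of its counts. Such intervals cover counting error only, not the spread between cultures, and reads without molecular identifiers are not independent molecules.

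In HCC-LM3 cells the respiratory chain genes of the sh-WDR4-2 library were slightly lower than those of the sh-NC library, with a single exception past 2-fold. The median log2 fold change of the 88 members was −0.055 against −0.0033 for all 12683 genes, and 22 of 88 members were higher, whereas 48.9% of all genes were higher. The exception was NDUFA4L2, with 209 counts in sh-WDR4-2 against 90 in sh-NC. No member was more than 2-fold lower. Of all genes, 0.221% were more than 2-fold higher and 0.0394% more than 2-fold lower. The counting interval lay below 0 in 36 of 88 members (40.9%) and above 0 in 4 (4.55%), whereas over all genes it lay below 0 in 21.5% and above 0 in 20.6%. Intervals narrow with the count and members have high counts, so the same shares were taken at a mean of at least 10 CPM. There 36 of 86 members (41.9%) lay below 0 and 3 (3.49%) above, against 24.8% and 21.0% of 9831 genes.

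In Huh-7 cells the members were on balance slightly higher in sh-WDR4-2 than in sh-NC, and none passed 2-fold in either direction. The median log2 fold change was 0.012 against −0.0021 for all 11971 genes, and 51 of 88 members were higher, whereas 49.0% of all genes were. Of all genes, 0.0668% were more than 2-fold higher and 0.0418% more than 2-fold lower. The counting interval lay above 0 in 21 members (23.9%) and below 0 in 8 (9.09%), against 15.0% and 15.1% of all genes. At a mean of at least 10 CPM, 25.6% of 82 members lay above 0 and 7.32% below, against 16.2% and 15.8% of 9680 genes.

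**Figure D1:**
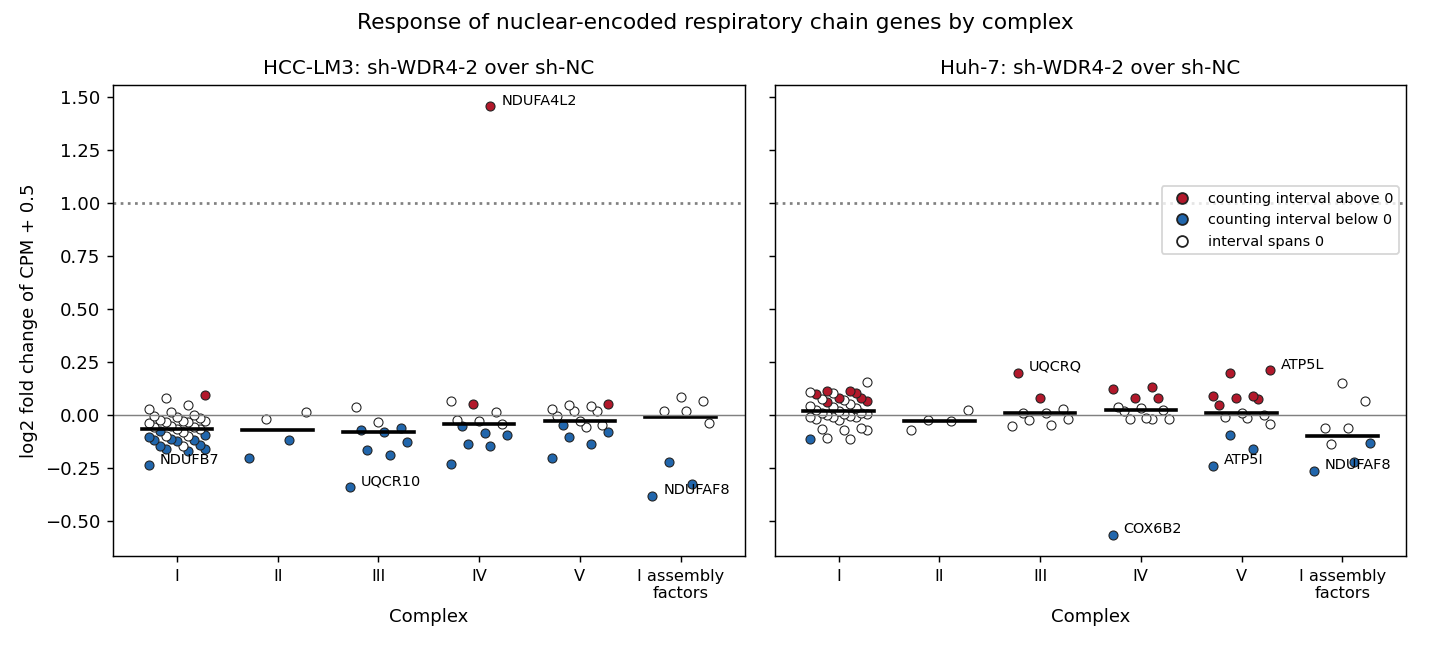
Log2 fold change of sh-WDR4-2 over sh-NC for each member with a mean of at least 1 CPM, by complex, in HCC-LM3 (left) and Huh-7 cells (right). Points are genes, black bars are medians, colours give the side of 0 on which the 95% counting interval lies, and the dotted line is the 2-fold threshold. NDUFA4L2 stands alone at 1.45 in HCC-LM3, while the medians of all 5 complexes lie between −0.08 and −0.03 in HCC-LM3 and between −0.03 and 0.03 in Huh-7.

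Complex I oxidizes NADH. Its 37 subunits had a median log2 fold change of −0.07 in HCC-LM3, with 31 lower and 6 higher, and of 0.02 in Huh-7, with 13 lower and 24 higher. All 7 nuclear core subunits, which hold the flavin and the iron-sulphur clusters, had negative values in HCC-LM3, from −0.17 to −0.02. Among them NDUFS8, a carrier of iron-sulphur clusters, had 2893 counts in sh-WDR4-2 against 4425 in sh-NC in HCC-LM3, a log2 fold change of −0.17 (−0.24 to −0.10), and 2450 against 2482 in Huh-7, 0.08 (0.00216 to 0.164). The counting interval of NDUFS7, its neighbour in the ubiquinone-binding module, lay below 0 in HCC-LM3 at −0.12. The 3 core subunits of the NADH-oxidizing module, NDUFV1, NDUFV2 and NDUFS1, had −0.03, −0.03 and −0.02 in HCC-LM3, all with intervals that span 0. In Huh-7, NDUFS1, the largest subunit, had 3857 counts in sh-WDR4-2 against 4481 in sh-NC, −0.11 (−0.177 to −0.0519), the only complex I subunit with an interval below 0 there.

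Of the 30 accessory subunits of complex I, which surround the core, NDUFB7 had the lowest value in HCC-LM3, with 2150 counts in sh-WDR4-2 against 3453 in sh-NC, −0.24 (−0.317 to −0.160). In Huh-7 NDUFB7 had 1823 counts in sh-WDR4-2 against 1827 in sh-NC, libraries of unequal size, 0.10 (0.00444 to 0.193). NDUFA5 had the largest positive value in HCC-LM3, 0.09 (0.0124 to 0.179), and was the only subunit of complex I with an interval above 0 there, followed by NDUFA1 at 0.08 (−0.0154 to 0.179). In Huh-7 the largest values belonged to NDUFB6 at 0.16 (−0.00300 to 0.325) and NDUFA2 at 0.12 (0.00652 to 0.228), and NDUFC2 was lowest next to NDUFS1 at −0.11 (−0.401 to 0.155). NDUFC2 had only 202 and 236 counts in Huh-7 sh-WDR4-2 and sh-NC, and 18.1% of its exon bases are shared with the readthrough gene NDUFC2-KCTD14.

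The 8 assembly factors NDUFAF1 to NDUFAF8 build complex I and are not part of it. Their summed CPM in sh-WDR4-2 was 0.895 of that in sh-NC in HCC-LM3 (0.868 to 0.923) and 0.941 in Huh-7 (0.909 to 0.975). The sum in HCC-LM3 does not stand for a fall of all factors, since 4 were higher and 4 lower there (median −0.0082). In Huh-7, 2 were higher and 6 lower (median −0.0965). NDUFAF3 had 80.2 CPM in HCC-LM3 sh-WDR4-2 against 93.7 in sh-NC, −0.22 (−0.295 to −0.152), and −0.06 (−0.138 to 0.0159) in Huh-7. NDUFAF8 and NDUFAF6 had intervals below 0 in both lines. Over all genes 21.5% lay below 0 in HCC-LM3 and 15.1% in Huh-7, and the share below 0 in both was not computed. NDUFAF8, which stabilizes NDUFAF5, had 1139 counts in HCC-LM3 sh-WDR4-2 against 2028 in sh-NC, −0.38 (−0.493 to −0.282), and 437 in Huh-7 sh-WDR4-2 against 566 in sh-NC, −0.26 (−0.455 to −0.0885). NDUFAF6 had 299 against 515 counts in HCC-LM3, −0.32 (−0.550 to −0.131), and 430 against 541 in Huh-7, −0.22 (−0.415 to −0.0439), again sh-WDR4-2 against sh-NC. NDUFAF5, its partner, had 0.08 and 0.07 in HCC-LM3 and Huh-7 with intervals that span 0, and NDUFAF4 had 0.07 in HCC-LM3 and −0.13 in Huh-7, likewise spanning 0.

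Complex II, succinate dehydrogenase, is the only complex with no mitochondrially encoded subunit. SDHA, its flavoprotein, had 12086 counts in sh-WDR4-2 against 16656 in sh-NC in HCC-LM3, −0.02 (−0.0515 to 0.0163), and 25132 against 26531 in Huh-7, 0.02 (−0.00110 to 0.0488). SDHB, the iron-sulphur subunit, had 2397 against 3759 counts in HCC-LM3, −0.20 (−0.278 to −0.130), and 2372 against 2594 in Huh-7, −0.03 (−0.108 to 0.0538). Of the membrane anchors, SDHC had −0.12 (−0.182 to −0.0581) and SDHD 0.01 (−0.0569 to 0.0859) in HCC-LM3, and both spanned 0 in Huh-7 at −0.02 and −0.07.

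Complex III passes electrons from ubiquinol to cytochrome c, and in HCC-LM3 8 of its 9 tested subunits were lower. Intervals lay below 0 in 7 of the 9 (77.8%), against 21.5% of all genes. The lowest value belonged to UQCR10, a small subunit beside cytochrome c1, with 1635 counts in sh-WDR4-2 against 2824 in sh-NC, −0.34 (−0.432 to −0.255). Next came CYC1, cytochrome c1 itself, with 5079 counts against 7870, −0.19 (−0.238 to −0.136). UQCRFS1, the Rieske iron-sulphur protein, had −0.08 (−0.139 to −0.0166), and UQCRC1, a core protein, −0.07 (−0.103 to −0.0330), whereas UQCRC2, the other core protein, was the one positive value at 0.04 (−0.0131 to 0.0887). In Huh-7 none of the 9 had an interval below 0, against 15.1% of all genes. There UQCR10 had 1028 counts in sh-WDR4-2 against 1117 in sh-NC, −0.02 (−0.141 to 0.106), and CYC1 had 8747 against 9527, −0.02 (−0.0633 to 0.0208). UQCRQ, which binds near cytochrome b, had the largest positive value of the complex in Huh-7, 1643 counts against 1533, 0.20 (0.101 to 0.303), and −0.13 (−0.222 to −0.0312) in HCC-LM3, and 20.8% of its exon bases overlap GDF9 on the opposite strand.

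Complex IV, cytochrome c oxidase, held the exception. NDUFA4L2, a paralog of NDUFA4 known to be induced by HIF-1 under low oxygen, had 5.90 FPKM in HCC-LM3 sh-WDR4-2 against 1.87 in HCC-LM3 sh-NC, a log2 fold change of 1.45 with an interval of 1.30 to 2.03. The interval is that of the counts without the added 0.5 CPM and so lies higher. In Huh-7 it had 9 counts in sh-WDR4-2 and 8 in sh-NC, 0.09 (−1.27 to 1.85), too few to show a change of the size seen in HCC-LM3. NDUFA4 itself had 4160 against 5840 counts in HCC-LM3, −0.04 (−0.102 to 0.0134), and 4695 against 4768 in Huh-7, 0.08 (0.0213 to 0.138). Per length, NDUFA4L2 thus made up 8.01% of the pair in HCC-LM3 sh-WDR4-2 (7.01% to 9.09%, exact Clopper-Pearson) against 2.60% in HCC-LM3 sh-NC (2.10% to 3.18%), and 0.331% (0.152% to 0.627%) in Huh-7 sh-WDR4-2 against 0.290% (0.125% to 0.570%) in Huh-7 sh-NC. NDUFA4 stayed the main form in all 4 libraries.

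**Figure D2:**
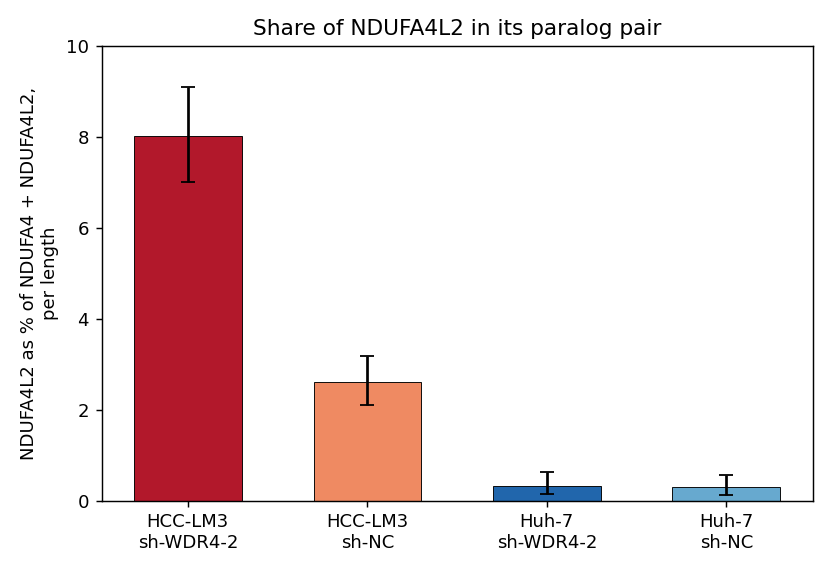
NDUFA4L2 as a percentage of the sum of NDUFA4 and NDUFA4L2, per gene length, in each of the 4 libraries, with 95% exact binomial intervals of the counts as error bars. The share is 8.01% in HCC-LM3 sh-WDR4-2 against 2.60% in HCC-LM3 sh-NC, and under 1% in both Huh-7 libraries.

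In the other isoform pairs of complex IV the alternative form stayed rare, at most 0.921% of the pair per length (COX7A1 in Huh-7 sh-NC). COX4I2, the low-oxygen and lung isoform of subunit 4, had 0 counts beside 8325, 12026, 10613 and 10757 counts of COX4I1 in HCC-LM3 sh-WDR4-2, HCC-LM3 sh-NC, Huh-7 sh-WDR4-2 and Huh-7 sh-NC. A count of 0 allows a share of up to 0.0360%, 0.0249%, 0.0283% and 0.0279% of the pair's counts in these libraries. The heart and muscle isoform COX6A2 and the isoform COX7B2 also had 0 counts throughout. By the same interval this allows at most 0.0489% and 0.0995% in any library. COX8C had 1 count in all. COX7A1, the heart and muscle isoform of subunit 7A, had 10 and 13 counts in HCC-LM3 sh-WDR4-2 and sh-NC and 12 and 16 in Huh-7 sh-WDR4-2 and sh-NC. COX6B2, the testis isoform of subunit 6B, had the lowest value of any tested member in Huh-7, with 38 counts in sh-WDR4-2 against 69 in sh-NC, −0.56 (−1.37 to −0.167). Per length it made up 0.478% of the pair with COX6B1 in Huh-7 sh-WDR4-2 against 0.828% in Huh-7 sh-NC, and 0.168% against 0.103% in HCC-LM3, and 30.9% of its exon bases are shared with another annotated gene.

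Among the common complex IV subunits, COX5B, which binds zinc, had 2579 counts in sh-WDR4-2 against 4121 in sh-NC in HCC-LM3, −0.23 (−0.303 to −0.160), and 0.02 (−0.0411 to 0.0808) in Huh-7. COX8A had −0.14 and COX5A −0.14 in HCC-LM3, both with intervals below 0, and −0.02 and 0.03 in Huh-7, both spanning 0. COX4I1 had −0.09 (−0.126 to −0.0451) in HCC-LM3 and 0.08 (0.0437 to 0.121) in Huh-7. COX6A1 likewise had −0.05 (−0.0946 to −0.00917) in HCC-LM3 and 0.13 (0.0909 to 0.178) in Huh-7. COX7B and COX7A2 had the largest positive values of the common forms in HCC-LM3, 0.05 (0.000550 to 0.107) and 0.07 (−0.00496 to 0.137). COX6C had 0.02 in HCC-LM3 and 0.12 (0.0350 to 0.212) in Huh-7.

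Complex V makes ATP. In HCC-LM3 its lowest value was that of ATP5J2, a small membrane subunit, at 1103 counts in sh-WDR4-2 against 1732 in sh-NC, −0.20 (−0.316 to −0.0961), followed by ATP5E, the epsilon subunit of the central stalk, at −0.14 (−0.199 to −0.0744). ATP5A1 and ATP5B, the alpha and beta subunits of the head, had −0.03 (−0.0544 to 0.00200) and −0.05 (−0.0653 to −0.0315) in HCC-LM3 and 0.01 (−0.0218 to 0.0454) and 0.05 (0.0261 to 0.0648) in Huh-7. The 4 peripheral stalk genes, ATP5F1, ATP5H, ATP5J and ATP5O, all had intervals above 0 in Huh-7, against 15.0% of all genes, from 0.08 to 0.20, the highest being ATP5H with 1952 counts in sh-WDR4-2 against 1825 in sh-NC. Between 10.3% and 25.4% of the exon bases of these 4 genes are shared with other genes. In HCC-LM3 ATP5O, the oligomycin sensitivity-conferring protein, had 0.05 (0.00293 to 0.106) and ATP5H 0.05 (−0.0215 to 0.117). ATP5L, the g subunit, had 0.21 (0.131 to 0.294) in Huh-7. ATP5I, the e subunit of the same membrane part, had 264 counts in Huh-7 sh-WDR4-2 against 338 in sh-NC, −0.24 (−0.492 to −0.0179), but 61.6% of its exon bases overlap MYL5 on the opposite strand. ATP5D, the delta subunit, had intervals below 0 in both lines, −0.10 (−0.182 to −0.0263) in HCC-LM3 and −0.16 (−0.224 to −0.0932) in Huh-7. How many of all genes lay below 0 in both lines was not computed.

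Subunit c of the rotor ring comes from 3 genes with the same mature protein. ATP5G1, ATP5G2 and ATP5G3 made up 38.9%, 41.0% and 20.1% of their summed FPKM in HCC-LM3 sh-WDR4-2 and 39.7%, 39.3% and 21.0% in HCC-LM3 sh-NC. In Huh-7 the shares were 43.4%, 42.9% and 13.7% in sh-WDR4-2 and 42.8%, 43.9% and 13.3% in sh-NC. The shares of the 2 hairpins differed by less than 2 percentage points in each line, while the share of ATP5G3 was higher in both HCC-LM3 libraries than in both Huh-7 libraries.

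Summed over the members of a complex, the ratio of sh-WDR4-2 to sh-NC in HCC-LM3 was 0.955 for complex I (0.946 to 0.963), 0.963 for complex II (0.946 to 0.981), 0.943 for complex III (0.932 to 0.956), 0.960 for complex IV (0.949 to 0.971) and 0.977 for complex V (0.970 to 0.985). In Huh-7 the ratios were 1.02 (1.01 to 1.03), 1.01 (0.991 to 1.02), 1.01 (0.998 to 1.02), 1.04 (1.02 to 1.05) and 1.02 (1.01 to 1.03) in the same order. The intervals of these ratios again cover counting error only, and the spread between replicate cultures was not measured. In bulk samples, fewer cells of a type and less RNA per cell cannot be told apart.

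**Figure D3:**
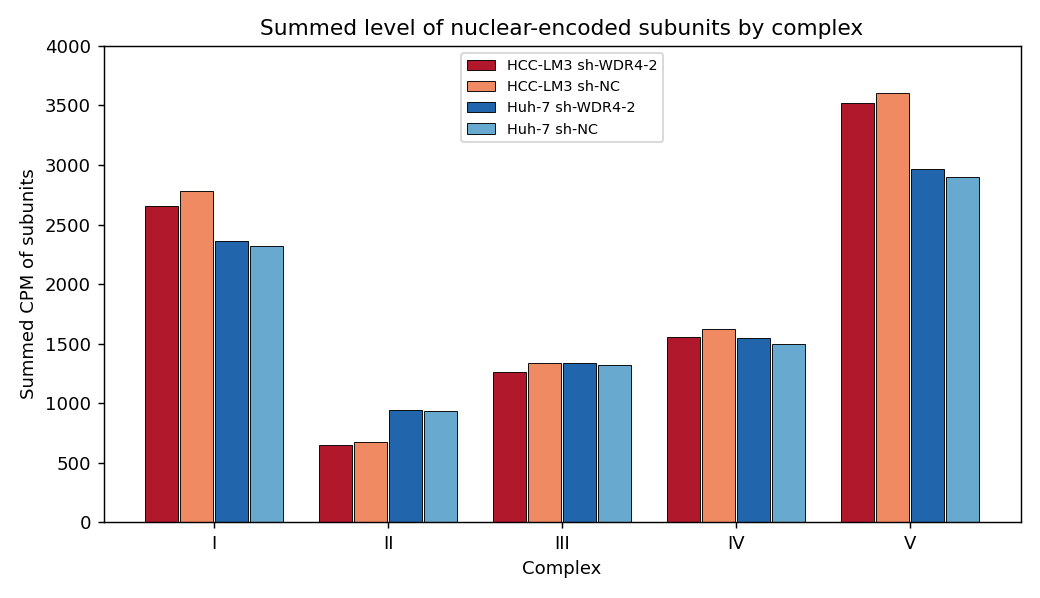
Summed CPM of the nuclear-encoded subunits of each complex in the 4 libraries, from counts scaled by TMM. Each HCC-LM3 sh-WDR4-2 bar is slightly below its HCC-LM3 sh-NC bar (complex I at 2654 against 2781 CPM), the ratio within a Huh-7 pair is at most 1.04, and complex II is higher in both Huh-7 libraries (941 and 935 CPM) than in both HCC-LM3 libraries (651 and 676 CPM).

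The common effect of the hairpin over both lines was tested by edgeR's quasi-likelihood fit to counts, in which the 2 libraries of a line formed a block and 1 degree of freedom was left over. No member was called at an adjusted p under 0.05, in a background of 0.0158% of 12693 genes called higher and 0% lower. Before adjustment, 1 member (NDUFA4L2) was higher and 5 (NDUFAF8, NDUFAF3, NDUFAF6, UQCR10 and ATP5D) lower in edgeR at 0.05, 6.82% of the members against 5.07% of all genes, and the lowest adjusted p of a member was 0.670. DESeq2 called 0 members after adjustment and put 1 lower before it. NDUFAF8 had a common log2 fold change of −0.34 ± 0.0903 (SE, adjusted p = 0.670 in edgeR), lower in sh-WDR4-2 in 2 of 2 lines. Whether the lines respond differently could not be tested, since 4 groups of 1 library leave no residual degree of freedom.

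Between the cell lines the differences were far larger than within them. Over the 88 members tested, 54 were higher in HCC-LM3 than in Huh-7 (61.4%), 18 were lower (20.5%) and 16 were not called, by edgeR's test with the hairpin as a term. Over all genes 39.0% were higher and 38.9% lower. DESeq2 called 49 members higher and 14 lower, and its shares over all genes are not given here. Members that lost the call in DESeq2 included COX4I1 (adjusted p = 0.0796 in DESeq2) and NDUFAF6 (adjusted p = 0.0979 in DESeq2). The median log2 fold change was 0.26 for members and 0.01 for all genes. This split depends on the scaling. With library totals and no TMM, all genes shift to a median of 0.20, and 66 members were higher and 9 lower, against 49.4% and 29.3% of all genes. Each line has 2 libraries that differ by hairpin, and nothing in the labels says that they were grown side by side.

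No source used here states whether counting used strand, so exons shared between genes matter. At most 10% of exon bases were shared in 56 of the 88 members tested in HCC-LM3 and 55 of those in Huh-7. Among these, 25 (44.6%) had intervals below 0 and 3 (5.36%) above in HCC-LM3, while in Huh-7 10 (18.2%) lay above and 5 (9.09%) below, and between the lines 35 were called higher and 14 lower. The Huh-7 share of 18.2% is nearer to the 15.0% of all genes than the 23.9% of all members was, and the HCC-LM3 share of 44.6% stands beside 21.5% of all genes. The same shares over all genes with few shared exons were not computed.

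**Figure D4:**
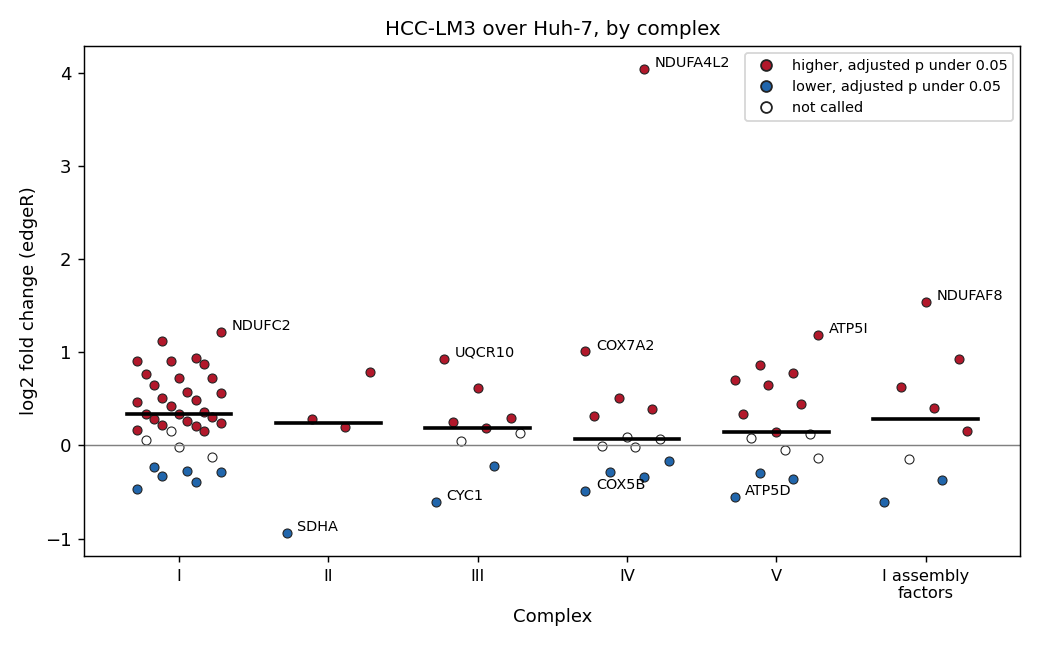
Log2 fold change of HCC-LM3 over Huh-7 by edgeR for each member tested, by complex. Points are genes, filled where the adjusted p is under 0.05, and black bars are medians. NDUFA4L2 is highest at 4.04, complex I has the highest median of the 5 complexes at 0.33, and SDHA is lowest at −0.94.

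Complex I had 27 of 37 subunits higher in HCC-LM3 and 6 lower, and its summed CPM was 1.16 times that in Huh-7. Complex III had 5 of 9 higher and 2 lower (summed ratio 0.978, and 1.12 with library totals alone). Complex IV had 5 of 13 higher and 4 lower (1.04), and complex V 8 of 15 higher and 3 lower (1.21). The shares called higher were 73.0%, 55.6%, 38.5% and 53.3% for complexes I, III, IV and V, against 39.0% of all genes. Those called lower were 16.2%, 22.2%, 30.8% and 20.0%, against 38.9%. The share of complex IV called higher was thus near that of all genes. NDUFC2, an accessory subunit of the membrane arm, had 6.26 and 6.64 FPKM in HCC-LM3 sh-WDR4-2 and sh-NC against 2.32 and 2.53 FPKM in Huh-7 sh-WDR4-2 and sh-NC, a log2 fold change of 1.22 ± 0.146 (SE, adjusted p = 6.62e-07 in edgeR). NDUFA7 followed at 85.9 and 87.8 FPKM in HCC-LM3 sh-WDR4-2 and sh-NC against 34.1 and 35.7 in Huh-7 sh-WDR4-2 and sh-NC, 1.12 ± 0.0840. NDUFC1 and NDUFAB1, the mitochondrial acyl carrier protein, had 0.94 and 0.91. In the other direction, NDUFS6 had 187 and 209 FPKM in HCC-LM3 sh-WDR4-2 and sh-NC against 244 and 234 in Huh-7 sh-WDR4-2 and sh-NC, −0.47 ± 0.0623 (adjusted p = 3.72e-06 in edgeR), and the core subunit NDUFS3 had −0.40. The members of 1 complex therefore did not keep a fixed ratio between the lines. Of the core subunits, 4 of 7 were called higher (57.1%, against 39.0% of all genes) and NDUFS3 and NDUFV2 lower (28.6%, against 38.9%). NDUFV1 was not called at 0.06.

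Among the assembly factors NDUFAF8 had the largest difference, 68.2 and 89.3 FPKM in HCC-LM3 sh-WDR4-2 and sh-NC against 21.3 and 25.8 FPKM in Huh-7 sh-WDR4-2 and sh-NC, a log2 fold change of 1.54 ± 0.0914 (SE, adjusted p = 5.24e-11 in edgeR). NDUFAF4 was higher at 0.93, while NDUFAF7, a methyltransferase, was lower at −0.61 and NDUFAF6 lower at −0.37.

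SDHA ran against the rest of complex II. It had 152 and 154 FPKM in HCC-LM3 sh-WDR4-2 and sh-NC against 258 and 254 FPKM in Huh-7 sh-WDR4-2 and sh-NC, a log2 fold change of −0.94 ± 0.0448 (SE, adjusted p = 2.58e-12 in edgeR), the largest negative difference of any member. SDHC, SDHD and SDHB were higher in HCC-LM3, at 0.79, 0.28 and 0.20. Summed CPM of the complex in HCC-LM3 was 0.707 of that in Huh-7, and 1.36 times without SDHA. SDHA has near-identical pseudogene copies elsewhere in the genome, and the handling of reads shared with them is likewise not stated.

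In complex III, CYC1 was lower in HCC-LM3, with 138 and 157 FPKM in sh-WDR4-2 and sh-NC against 194 and 197 FPKM in Huh-7 sh-WDR4-2 and sh-NC, −0.60 ± 0.0544 (adjusted p = 2.43e-08 in edgeR), and UQCRC1 was lower at −0.22. UQCR10 was higher at 0.93 ± 0.0872, with 58.0 and 73.6 FPKM in HCC-LM3 sh-WDR4-2 and sh-NC against 29.7 and 30.1 in Huh-7 sh-WDR4-2 and sh-NC, so the difference between the lines exceeded that between the hairpins in HCC-LM3. UQCR11, UQCRFS1 and UQCRC2 were higher at 0.62, 0.30 and 0.18, and UQCRH and UQCRQ were not called at 0.05 and 0.13.

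In complex IV, NDUFA4L2 had a log2 fold change of 4.04 ± 0.428 (SE, adjusted p = 1.64e-07 in edgeR), on 209 and 90 counts in HCC-LM3 sh-WDR4-2 and sh-NC against 9 and 8 in Huh-7 sh-WDR4-2 and sh-NC. Its adjusted p in edgeR was 0.0844 without the Huh-7 sh-WDR4-2 library and 0.0985 without the Huh-7 sh-NC library, at log2 fold changes of 4.26 and 3.99, and without the HCC-LM3 sh-WDR4-2 library the value was 3.09. COX7A2, the widely expressed isoform of subunit 7A, had 136 and 129.5 FPKM in HCC-LM3 sh-WDR4-2 and sh-NC against 57.1 and 57.6 in Huh-7 sh-WDR4-2 and sh-NC, 1.01 ± 0.0685 (adjusted p = 3.28e-10 in edgeR), and COX7B was higher at 0.51. COX5B was lower at −0.49 ± 0.0657, and COX7A2L, a factor that joins complexes III and IV, at −0.34. COX4I1 was called lower at −0.17 with TMM and had 0.03 with library totals alone, so it has no direction independent of the scaling.

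In complex V, ATP5I was higher in HCC-LM3 at 1.19 ± 0.129 (adjusted p = 1.95e-07 in edgeR), subject to its overlap with MYL5. ATP5G3 was higher at 0.86 ± 0.0555, with 70.0 and 74.1 FPKM in HCC-LM3 sh-WDR4-2 and sh-NC against 34.4 and 34.7 in Huh-7 sh-WDR4-2 and sh-NC, and ATP5H and ATP5L at 0.78 and 0.71. The head subunits ATP5A1 and ATP5B were higher at 0.45 and 0.33. ATP5D was lower at −0.55 ± 0.0600, with 89.0 and 95.7 FPKM in HCC-LM3 sh-WDR4-2 and sh-NC against 112 and 125 in Huh-7 sh-WDR4-2 and sh-NC, and ATP5F1, a peripheral stalk subunit, at −0.37. Of the 50 named members called between the lines, 10 lost the call in edgeR when at least 1 library was left out, namely UQCRC2, COX4I1, NDUFA4L2, NDUFA5, NDUFAF6, NDUFAF1, SDHB, COX6C, NDUFS7 and ATP5G2.

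Genes of the pathway outside the symbol rule were followed as lists. Of 8 further complex I assembly factors, 7 were lower in HCC-LM3 sh-WDR4-2 than in sh-NC (median −0.09), with ACAD9 at −0.19, and 6 were higher in Huh-7 (median 0.07), where TMEM186 had −0.32. Of 22 tested complex IV assembly genes, 15 were lower in HCC-LM3 (median −0.07) and 13 in Huh-7 (median −0.02), and none passed 2-fold. Of 10 assembly genes of complexes II and III, 6 were lower in each line (medians −0.09 in HCC-LM3 and −0.02 in Huh-7), SDHAF3 being lowest in Huh-7 at −0.45. All 3 tested assembly genes of complex V were lower in HCC-LM3 (median −0.21) and 1 of 3 in Huh-7 (median 0.07). The 10 genes of cytochrome c and of electron donors to ubiquinone had medians of 0.01 in both lines, but single genes moved apart. PRODH had −0.63 (−1.16 to −0.325) in HCC-LM3, on 71 counts in sh-WDR4-2 against 161 in sh-NC, and CHDH had 0.36 (0.143 to 0.619). ETFB had −0.13 (−0.201 to −0.0639) in HCC-LM3 and −0.26 (−0.382 to −0.154) in Huh-7. In HCC-LM3, 1 of the 10 intervals lay above 0 and 3 below, and in Huh-7 2 lay above and 1 below. NDUFA4L2 belongs to the response to low oxygen, and of 8 other genes known to respond, most of them mitochondrial, 5 had intervals above 0 and 1 below in HCC-LM3, with a median of 0.43, against 20.6% above and 21.5% below for all genes. In Huh-7, 4 had intervals above 0 and 0 below, with a median of 0.05, against 15.0% and 15.1% of all genes. BNIP3, a mitophagy receptor, had 5082 counts in HCC-LM3 sh-WDR4-2 against 2991 in sh-NC, 1.20 (1.14 to 1.28), and 4288 in Huh-7 sh-WDR4-2 against 4359 in sh-NC, 0.08 (0.0172 to 0.139). BNIP3L, its paralog, had 0.94 in HCC-LM3 and −0.0030 in Huh-7, HILPDA, a lipid droplet protein, 0.90 and −0.02, and PDK1, the kinase that inhibits pyruvate dehydrogenase, 0.75 and 0.13. HIGD1A had 0.11 and 0.17, while CHCHD2 had −0.12 (−0.149 to −0.0873), FUNDC1 −0.06 and LONP1 −0.03 in HCC-LM3, and 0.03, 0.15 and 0.03 in Huh-7. BNIP3 alone of the 8 passed 2-fold, against 0.221% of all genes in HCC-LM3. Whether the oxygen supply differed between the cultures was not measured.

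Among regulators of respiratory chain genes, the coactivator PPARGC1A had −0.16 (−0.262 to −0.0647) in HCC-LM3 and −0.08 (−0.166 to 0.00971) in Huh-7, its nuclear receptor partner ESRRA had −0.27 (−0.349 to −0.192) and −0.05 (−0.112 to 0.0178), and NRF1 had 0.04 (−0.110 to 0.187) and 0.15 (0.0111 to 0.297). CYCS, which encodes cytochrome c, had 0.01 and 0.06. Others went the other way in HCC-LM3, namely PPARGC1B at 0.12 (0.0159 to 0.229), GABPA at 0.11 (0.0224 to 0.204) and MTERF1 at 0.27 (0.0707 to 0.503). Over the 15 genes of mtDNA expression and mitochondrial biogenesis, medians were −0.04 in HCC-LM3 and 0.03 in Huh-7. Intervals lay above 0 in 3 (20.0%) and below 0 in 6 (40.0%) in HCC-LM3, against 20.6% and 21.5% of all genes. In Huh-7, 2 (13.3%) lay above and 1 (6.67%) below, against 15.0% and 15.1%. Between the lines, POLRMT, the mitochondrial RNA polymerase, was lower in HCC-LM3 at −1.84 ± 0.0554 (adjusted p = 6.33e-15 in edgeR), and of the 15 genes 1 (6.67%) was called higher and 5 (33.3%) lower, against 39.0% and 38.9% of all genes.

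Some sequence motifs, which the rule did not use, were more frequent in subunit promoters than in all promoters. Promoter windows of 250 bases before to 50 after the start (RefSeq, GRCh38.p14) were found for 67 of the 86 subunit genes, 80 windows in all. The core of the NRF1 motif, GCATGCGC on either strand, occurred in 15 of the 80 (18.8%), against 3.05% of 35116 windows of all genes. The ETS motif CCGGAAG occurred in 26.2% against 10.3%, the YY1-type motif ATGGCGGC in 16.2% against 3%, and the HIF core ACGTG in 23.8% against 21.4%. The longer NRF1 palindrome, which contains the core on both strands, occurs in 4 of the 80 windows (5%), against 1.24% of all windows. ATP5C1, the gamma subunit of the central stalk (ATP5F1C in RefSeq), holds it. Its window on the plus strand at chr10:7787927-7788226 is shown with that match in capitals.
ATP5C1: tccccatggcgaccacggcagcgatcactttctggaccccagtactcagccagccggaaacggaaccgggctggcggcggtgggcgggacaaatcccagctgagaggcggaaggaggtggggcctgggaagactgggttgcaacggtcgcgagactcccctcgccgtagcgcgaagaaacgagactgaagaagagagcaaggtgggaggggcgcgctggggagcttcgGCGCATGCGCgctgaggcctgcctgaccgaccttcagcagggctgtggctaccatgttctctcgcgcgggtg
ATP5C1 had 151 and 149 FPKM in HCC-LM3 sh-WDR4-2 and sh-NC and 82.5 and 83.4 FPKM in Huh-7 sh-WDR4-2 and sh-NC. A match of letters is a description of the window, not a measured binding site. For the motifs, no background of expressed genes alone was taken.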

How the data were processed

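Poly(A) RNA-seq of 4 libraries was deposited as 1 table, in which the authors gave raw counts and FPKM for each of 19225 gene symbols. For the counter, annotation, build and strand setting, no source used here gives a value. Bowtie 0.12.2 and, although the cells are human, mm8 and mm9 of the mouse appear in the submitters' processing notes. The labels and the study's methods name different library kits. The deposited counts were scaled by TMM in edgeR 4.0.16 (R 4.3.3). Within a line, log2(CPM + 0.5) was compared over genes averaging 1 CPM or more, with 95% exact binomial intervals of the counts. The common effect of the hairpin and the cell-line difference were tested by edgeR's robust quasi-likelihood fit with both terms, with Benjamini-Hochberg adjustment over 12693 genes and a threshold of 0.05. DESeq2 1.42.0 was an alternative. The pairing is by cell line. A library is 1 culture as far as the labels say, so the p-values hold no spread between replicate cultures. With both terms fitted, the 1 degree of freedom left over measures how far the hairpin difference varies between the lines. The fit also shares its estimate of spread over genes. The deposited FPKM served to compare levels between genes. At library totals of 29807047 to 40572251 counts, the floor of 3 counts equals 0.0690 to 0.0940 CPM. Named were the core catalytic subunits, all isoform pairs, the 2 most extreme members of each complex in each direction and comparison (mean of at least 5 CPM), up to 10 members called in each direction, and up to 4 genes of each further list; a few others were chosen after their values were seen, and 1 core subunit is not reported here by name. Members, lists and named genes were chosen with earlier results of these data known. Exon overlap was read from GENCODE 29, promoters from RefSeq. Alternatives were other scalings, filters, pseudocounts, FPKM, no block, the removal of each library and of the most abundant member, and members with few shared exons.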

Additional observations from a re-analysis of the deposited data

Results flagged for a closer look

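Some members had opposite directions in the 2 cell lines, with both counting intervals off 0. Each value below is the log2 fold change of sh-WDR4-2 over sh-NC in HCC-LM3 minus that in Huh-7, and no difference was tested, since 4 groups of 1 library leave no residual degree of freedom. In complex I the values were −0.16 for NDUFA13, −0.20 for NDUFB11, −0.33 for NDUFB7, −0.22 for NDUFS6 and −0.25 for NDUFS8. UQCRQ of complex III had −0.32. In complex IV, COX4I1 had −0.17 and COX6A1 had −0.19. In complex V, ATP5B had −0.09 and ATP5E had −0.21. All 10 were lower in sh-WDR4-2 in HCC-LM3 and higher in Huh-7, which is 11.5% of the 87 members tested in both lines, against 3.13% of 11537 genes, and no member had the opposite pattern, against 2.89% of genes. Over 10% of exon bases are shared with other genes in NDUFB11 (44.9%), ATP5E (23.2%), NDUFA13 (21.0%), UQCRQ (20.8%) and COX6A1 (13.0%), and of the 55 members with at most 10% shared, 5 (9.09%) had the pattern.

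The summed levels also had opposite directions, with a difference of log2 ratios of −0.09 for all members, −0.08 for the subunits of complexes I to V, −0.09 for complex I, −0.12 for complex IV and −0.06 for complex V. The sums include the genes just named and are not independent of them.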

How the results depend on the processing

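Of 188 summary values under alternatives, 161 were classed as unchanged, 26 as moved and 1 as reversed. Counts of members and medians were classed by fixed tolerances, not by their spread. The tolerance for medians was about the size of the HCC-LM3 median and above the Huh-7 one, but no median changed sign. Sums and shares were classed by counting intervals or by the spread of 2 libraries. Of 1901 values of named members, 1842 were classed as unchanged. Within a line this class covers the 2-fold threshold only, so changes of sign below it were not counted. In the edgeR and DESeq2 fits it covers direction and call. The member more than 2-fold higher in HCC-LM3 was lost at a mean of at least 10 CPM (0), where NDUFA4L2 is filtered out. Among members with at most 10% of exon bases shared, an alternative chosen after seeing the data that leaves fewer members, Huh-7 had 10 intervals above 0 and 5 below, and 35 members were called higher in HCC-LM3. Without TMM, 9 members were called lower in HCC-LM3.

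The summed ratio of all members of sh-WDR4-2 over sh-NC in HCC-LM3 was 0.955 from FPKM. Summed ratios of HCC-LM3 over Huh-7 without TMM were 1.25 for all members, 1.33, 0.812, 1.12, 1.20 and 1.39 for complexes I to V, and from FPKM 1.27 for all members, 1.32, 0.889, 1.12, 1.24 and 1.34. Without the most abundant member, that ratio was 1.36 for complex II, 1.03 for complex III, 1.08 for complex IV and 1.18 for complex V, and the ratio of sh-WDR4-2 over sh-NC was 0.931 in HCC-LM3 and 0.972 in Huh-7 for complex II and 0.985 in HCC-LM3 for complex V. In all, 5 summed ratios crossed 1: complex II between the lines (0.707 with all members), complex II in Huh-7 (1.01) and complex III between the lines (0.978) under 3 alternatives. As a share of counts, NDUFA4L2 made up 4.78% in HCC-LM3 sh-WDR4-2 and 1.52% in HCC-LM3 sh-NC.

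Leaving out each library in turn gave 45 to 56 members higher and 15 to 18 lower in HCC-LM3. It could not be done for the common effect, which would have no residual degree of freedom. Without the block for the pairing by cell line, 0 members were called for the common effect, and without the shRNA term 52 were higher and 18 lower in HCC-LM3. The common log2 fold change changed sign near 0 for COX4I1 (0.0017 in DESeq2, 0.0035 with no block), ATP5B (0.0015 in DESeq2), NDUFV1 (0.0014 in DESeq2) and NDUFC1 (−0.0057 with no block).

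HCC-LM3 over Huh-7 changed sign without TMM for COX4I1 (0.0299), ATP5E (0.16), NDUFA4 (0.18) and COX6A1 (0.20). It did so in DESeq2 for NDUFA4 (0.0065) and COX6A1 (0.0203), and for COX6A1 with DESeq2 size factors (0.0044) and at 10 CPM (0.0064). Leaving out each library in turn gave −0.1130 to 0.0236 for ATP5E, −0.0548 to 0.0249 for NDUFA4, −0.0681 to 0.0663 for COX6A1 and −0.0024 to 0.1352 for COX5A. Of these, COX4I1 alone was called in the main fit (adjusted p = 0.00676 in edgeR). Without TMM it was not called in edgeR (adjusted p = 0.601). The others were then called higher in HCC-LM3, at adjusted p of 0.0331 for ATP5E, 0.00767 for NDUFA4, 0.00382 for COX6A1 and 0.000880 for COX5A in edgeR. The cause of these shifts was not tested.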
